A study of Mus musculus with 2 samples.

Results

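The R-spondins, the LGR receptors that bind them and the ubiquitin ligases they restrain were followed in osteoblastic cells with and without the transcription factor Ebf2. The 8 genes Rspo1, Rspo2, Rspo3, Lgr4, Lgr5, Lgr6, Rnf43 and Znrf3 were represented by 14 probe sets (sets of short oligonucleotides for one transcript) that the platform annotation ties to a single gene symbol, of 45101 probe sets in all, and by 8 of the 18194 genes with such a probe set. The set was selected on its function and on earlier results of the same 2 arrays, in which the ratios of Lgr5 and Rspo3 stood out, so its values are a description and carry no test. The Ebf2-/- array came from cells of mice that lack Ebf2, and the Ebf2+/- array from cells of heterozygous mice, which already lack 1 functional copy. Both genotypes were C57Bl/6 at stage E18.5 and carried the lacZ marker of the Ebf2 locus. Cells of tibia and femur were loaded with FDG, a substrate that fluoresces once the lacZ product cleaves it, sorted on that marker and expanded in culture without passage in alpha MEM with 10% serum. Per the labels there were 3 mice of each genotype; pooling of their RNA is not mentioned. Each genotype had 1 array, so no value has a replicate check and no p-value was computed. Wild-type cells were not analysed here.

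R-spondins are secreted proteins that strengthen Wnt signalling rather than start it. The membrane ubiquitin ligases RNF43 and ZNRF3 remove Frizzled receptors and the co-receptor LRP6 from the cell surface, and an R-spondin that binds an LGR receptor and one of these ligases at the same time clears the ligase from the membrane, which leaves more Wnt receptor in place. In bone, Wnt signalling favours osteoblast formation, and in mice Rspo2 and Rspo3 act in limb development. Lgr5, Rnf43 and Znrf3 are also targets of the pathway in several tissues, so the system holds its own feedback.

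In Ebf2-/- cells the ligand gene Rspo3 and the receptor gene Lgr5 were higher than in Ebf2+/- cells, by 4.42-fold and 12.7-fold, and Rspo1 was at least 2.51-fold higher. Rspo2, Lgr4 and Znrf3 were lower by less than 2-fold by their brighter probe sets; with the mean over probe sets Rspo2 passed 2-fold and Znrf3 was higher. Lgr6 and Rnf43 were at or near background on both arrays. Of the 7 members above background on at least 1 array, 3 reached 2-fold higher in Ebf2-/- cells and 0 reached 2-fold lower, beside 6.30% and 3.46% of the 11785 genes above background. Scaled to the spike-in transcripts, the arrays gave 4.48% and 5.30%, with the same counts of members. These shares are given as context only, because the set was chosen with its ratios known. The count of 3 includes Rspo1, which was seen on the Ebf2-/- array alone and could only come out higher there. With 50 added to both signals, or after lowess scaling, Rspo1 fell under 2-fold and 2 members were at least 2-fold higher. A bulk array cannot tell a change in the number of cells that make a transcript from a change in RNA per cell.

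Background here means the 95th percentile of 86 probe sets for smell and taste receptors, 23.8 on the Ebf2-/- array and 17.8 on the Ebf2+/- array. Signals below it were raised to it before the log2 ratio of Ebf2-/- over Ebf2+/- was taken, and a gene above it on 1 array only has a lower bound, written "at least". Such a gene can only come out higher on the array where it was seen. Probe sets of one gene, all above background on both arrays, differed in their log2 ratios with an SD of 0.44 (a factor of 1.36, pooled from 4119 genes), which is an error within the arrays and leaves out the spread between mice. The median log2 ratio of the 11176 genes with a fold was -0.01.

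An entry for 4 members stands in the RefSeq table of start-site sequences (GRCm38.p6), for Rspo1, Lgr4, Lgr6 and Rnf43. The 250 bases before the start are shown for Rspo1, the one of them with a ratio past 2-fold, and for Lgr4, the receptor of the set that was bright on both arrays and not higher in Ebf2-/- cells. Both lie on the + strand, Rspo1 at chr4:124986180-124986429 and Lgr4 at chr2:109917397-109917646. Capitals mark CCAAT boxes.
Rspo1: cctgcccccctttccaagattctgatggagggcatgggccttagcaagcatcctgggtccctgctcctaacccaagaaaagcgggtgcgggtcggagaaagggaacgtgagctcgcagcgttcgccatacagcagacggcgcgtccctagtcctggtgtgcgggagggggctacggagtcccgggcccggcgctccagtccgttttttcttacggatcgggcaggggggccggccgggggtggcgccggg
Lgr4: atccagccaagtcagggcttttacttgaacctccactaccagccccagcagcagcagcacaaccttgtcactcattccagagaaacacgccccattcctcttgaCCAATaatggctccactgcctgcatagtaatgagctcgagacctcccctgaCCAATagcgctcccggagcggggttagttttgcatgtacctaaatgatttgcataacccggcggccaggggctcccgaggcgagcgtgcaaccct

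The Rspo1 sequence held 66.8% G and C and 22 CpG pairs, and that of Lgr4 held 55.6% and 10, beside medians of 52.4% and 6 over 32851 such sequences. The Lgr4 sequence had 2 CCAAT boxes, whose first bases lie 146 and 95 bases before the start, and the Rspo1 sequence had 0. On either strand, 33.8% of all 250-base sequences held CCAAT, a motif looked for after the sequences had been seen. The core of the EBF binding site, searched as CCCNNGGG, was in neither of them, nor in the sequences of Lgr6 and Rnf43, and was in 11.8% of all. The core of the TCF/LEF site, searched as CTTTGA, was likewise in none of the 4 genes' sequences and in 13.8% of all. The motifs do not overlap one another in these sequences, and a missing match concerns these letters in this window only.

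Among the ligands, Rspo3 was bright on both arrays. Its brighter probe set (1455607_at) had a signal of 1939 in Ebf2-/- cells, above 98.3% of all probe sets, against 439 in Ebf2+/- cells, above 92.0% of them. The log2 ratio was 2.14, which only 0.86% of the genes with a fold exceeded. Its other probe set (1443187_at) read 117 in Ebf2-/- cells and 15.2, below background, in Ebf2+/- cells, at least 6.59-fold higher. Both probe sets of Rspo3 gave the same direction, but the dimmer one, seen on the Ebf2-/- array alone, could only come out higher there. The difference of the brighter one from the median of all genes was 4.86 times the SD between probe sets. The set was chosen with this ratio known, so these values are a description.

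Rspo1, which in mice is known for ovary determination, was dim and had a single probe set (1449319_at). Its signal was 44.7 in Ebf2-/- cells and 11.3, below background, in Ebf2+/- cells. The ratio of at least 2.51-fold is measured against the floor, and a gene seen on the Ebf2-/- array alone could only come out higher there. The signals as deposited differed by 3.94-fold. The log2 ratio was 1.46 with the array median as floor, but 0.63 with a pseudocount of 50 added to both signals and 0.93 after lowess scaling, both under 2-fold.

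Rspo2, whose loss in mice disturbs limb growth, went the other way. Its brighter probe set (1455893_at) read 194 in Ebf2-/- cells and 315 in Ebf2+/- cells, a log2 ratio of -0.70, or 1.63-fold lower. That difference is 1.57 times the SD between probe sets, and 8.01% of the genes with a fold had a lower ratio. The second probe set (1430104_at) was below background on both arrays, with 1.39 in Ebf2-/- cells and 16.7 in Ebf2+/- cells, and gives no fold. When both were averaged on the log scale, the mean in Ebf2-/- cells lay below the floor, and the log2 ratio of Rspo2 was -1.61 as a bound, at least 2-fold lower. Rspo1, Rspo2 and Rspo3 therefore did not differ between the genotypes in one common direction. The fourth family member, Rspo4, was below background on both arrays, with 1.21 in Ebf2-/- cells and 10.9 in Ebf2+/- cells.

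**Figure D1:**
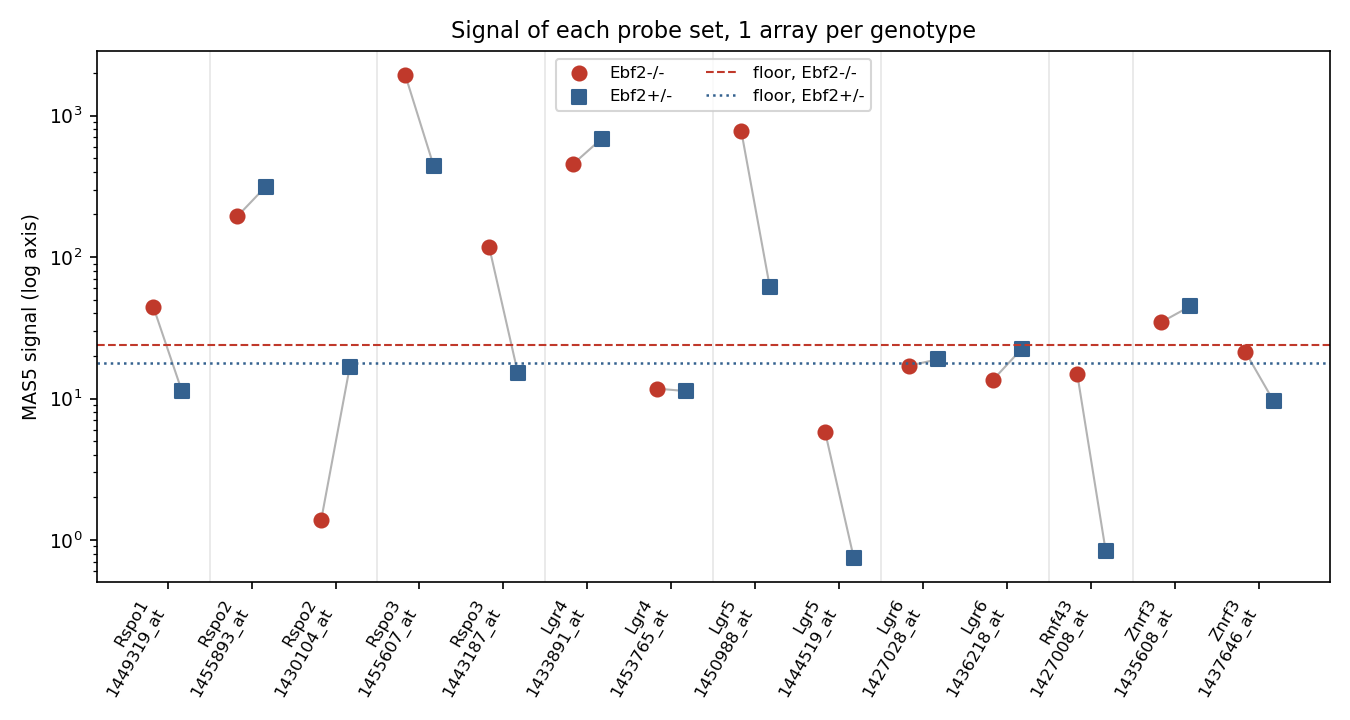
MAS5 signal (log axis) of each of the 14 probe sets, with Ebf2-/- as circles and Ebf2+/- as squares, 1 array each, and the background floor of each array as a line. Rspo3 (both probe sets), Rspo1 and the bright probe set of Lgr5 are higher in Ebf2-/- cells, while 5 probe sets lie below the floor on both arrays; heights of different probe sets are not comparable.

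Among the receptors, Lgr5, best known as a marker of intestinal stem cells, had the largest ratio of the set. Its signal (1450988_at) was 782 in Ebf2-/- cells and 61.8 in Ebf2+/- cells, above 95.5% and 70.9% of the probe sets of each array. At a log2 ratio of 3.66 it ranked 8th from the highest of 11176 genes with a fold, a description, since the set was chosen with this ratio known. Lgr5 was above background on both arrays, so this ratio is not a bound. It rests on 1 probe set, because the other (1444519_at) was below background on both arrays, with 5.77 in Ebf2-/- cells and 0.75 in Ebf2+/- cells. Averaging the bright and the dim probe set brought the log2 ratio to at least 1.92, and with a pseudocount of 50 it was 2.90.

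Lgr4, the most widely expressed of these receptors, was bright on both arrays. It read 455 in Ebf2-/- cells and 688 in Ebf2+/- cells by its brighter probe set (1433891_at), a log2 ratio of -0.60, or 1.51-fold lower. This is 1.33 times the SD between probe sets, and 10.8% of the genes with a fold had a lower ratio. The second probe set of Lgr4 (1453765_at) was below background, with 11.7 in Ebf2-/- cells and 11.3 in Ebf2+/- cells. Lgr4 and Lgr5, which bind the same ligands, thus stood on opposite sides of 1.

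Lgr6, described in mice as a marker of osteoblast precursors, was near background. Its probe sets read 17.1 (1427028_at) and 13.6 (1436218_at) in Ebf2-/- cells, both below the floor, and 18.9 and 22.5 in Ebf2+/- cells, both just above it. Neither Ebf2+/- signal exceeds the Ebf2-/- floor of 23.8, so no fold is given. A difference in Lgr6 was not detectable at this signal.

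Of the ubiquitin ligases, Znrf3 was measured and Rnf43 was not. Znrf3 read 34.6 in Ebf2-/- cells and 44.7 in Ebf2+/- cells (1435608_at), a log2 ratio of -0.37, or 1.29-fold lower, which is smaller than the SD between probe sets. Its second probe set (1437646_at) was below background on both arrays, with 21.5 in Ebf2-/- cells and 9.56 in Ebf2+/- cells. The mean of both probe sets gave a log2 ratio of 0.40 for Znrf3. Its direction thus depends on whether the second probe set, which by itself gives no fold, is averaged in. The single probe set of Rnf43 (1427008_at) read 15.0 in Ebf2-/- cells and 0.83 in Ebf2+/- cells, both below background, and no fold is given.

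**Figure D2:**
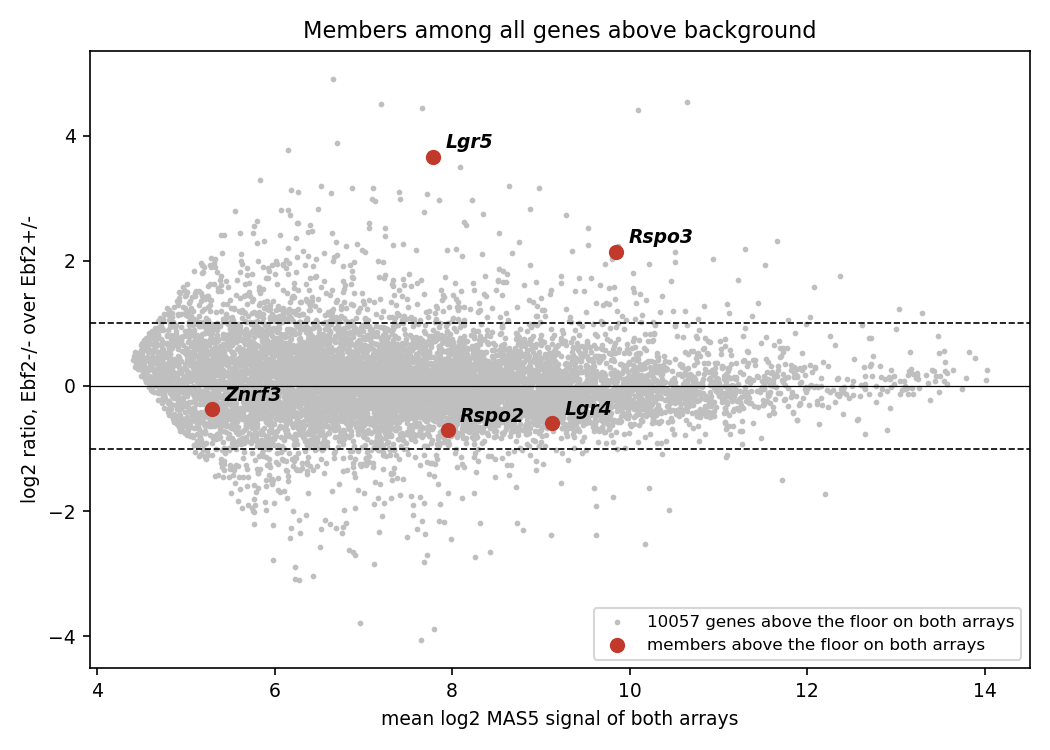
Log2 ratio of Ebf2-/- over Ebf2+/- against the mean log2 signal of both arrays, for the 10057 genes above background on both (grey) and the 5 members among them (red). Dashed lines mark 2-fold; Lgr5 (3.66) and Rspo3 (2.14) lie far above the upper line, and Rspo2, Lgr4 and Znrf3 lie between 0 and the lower line.

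The proteins of the Frizzled and LRP receptor genes are those that RNF43 and ZNRF3 remove from the cell surface. Of these genes, 5 of the 11 with a fold were at least 2-fold higher in Ebf2-/- cells and 2 reached 2-fold lower. Among all genes above background, 6.30% passed 2-fold upwards and 3.46% downwards. The count of 5 includes Lrp5, with 39.3 in Ebf2-/- cells and a signal below background in Ebf2+/- cells, at least 2.20-fold higher. Seen on the Ebf2-/- array alone, Lrp5 could only come out higher there. The median log2 ratio of the receptor list was 0.94. Fzd4 had the largest ratio, with 289 in Ebf2-/- cells and 34.1 in Ebf2+/- cells, 8.47-fold higher, and another probe set gave 9.41-fold. The co-receptor gene Lrp6 read 612 in Ebf2-/- cells and 211 in Ebf2+/- cells, 2.91-fold higher, but 1.29-fold by its other probe set. Fzd5 had 426 in Ebf2-/- cells and 155 in Ebf2+/- cells, 2.74-fold higher, with 1.28-fold by its dimmer probe set. Fzd9 was 2.75-fold lower, with 29.3 in Ebf2-/- cells and 80.5 in Ebf2+/- cells.

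Genes that canonical Wnt signalling is known to induce, taken apart from Lgr5, Rnf43 and Znrf3, did not reach 2-fold by the brightest probe set. Of 9 with a fold, 0 passed 2-fold in either direction, beside 6.30% upwards and 3.46% downwards of the genes above background. At these shares, a count of 0 among 9 genes says little. Other probe sets of some of these genes did pass 2-fold. The median log2 ratio of the list was 0.24, and it changed sign to -0.46 without probe sets ending in _s_at, _x_at or _a_at. Lef1 has only a bound, at least 1.38-fold lower, with 6.44 in Ebf2-/- cells, below background, and 32.8 in Ebf2+/- cells. Ccnd1, the gene of the cell cycle regulator cyclin D1, had the largest difference that was not a bound. It read 1782 in Ebf2-/- cells and 3401 in Ebf2+/- cells, 1.91-fold lower, and its other probe sets gave 1.10-fold and 1.40-fold lower. The Wnt inhibitor Nkd1 read 82.5 in Ebf2-/- cells and 45.4 in Ebf2+/- cells, 1.81-fold higher, and another of its probe sets gave 3.19-fold. Its relative Nkd2, chosen here with its values known, had 160 in Ebf2-/- cells and 220.2 in Ebf2+/- cells, and its 4 probe sets were all lower, one of them by 2.33-fold.

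The membrane Wnt inhibitor Apcdd1 read 85.4 in Ebf2-/- cells and 57.4 in Ebf2+/- cells, 1.49-fold higher. Other Apcdd1 probe sets above background on both arrays gave 2.20-fold and 2.07-fold higher. As bounds, further ones gave at least 2.26-fold and 1.45-fold higher. Notum, an enzyme that inactivates Wnt proteins, had 44.0 in Ebf2-/- cells and 31.0 in Ebf2+/- cells, 1.42-fold higher. Axin2, a common reporter of the pathway chosen here with its values known, read 29.4 in Ebf2-/- cells and 40.5 in Ebf2+/- cells.

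Other known or proposed ligands and partners of the R-spondin and LGR proteins were mostly close between the genotypes. Of 6 with a fold, 1 passed 2-fold, upwards. Their median log2 ratio was -0.19, but 0.33 with the mean over probe sets. The heparan sulphate proteoglycan gene Gpc3 read 67.7 in Ebf2-/- cells and 27.2 in Ebf2+/- cells, 2.49-fold higher. Sdc4, whose protein was described as a receptor for Rspo3 in Xenopus, had 313 in Ebf2-/- cells and 177 in Ebf2+/- cells, 1.76-fold higher, while its other probe set was 1.31-fold lower. Sdc2 and Sdc1 were 1.34-fold and 1.16-fold lower. The other Sdc2 probe sets above background gave 1.51-fold lower and 1.27-fold higher. The proposed LGR4 ligands Ndp and Tnfsf11 were below background on both arrays.

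The other ubiquitin ligases that share the protease-associated and RING domains of RNF43 and ZNRF3 held 6 genes with a fold, of which 1 passed 2-fold, downwards (median log2 ratio -0.17). Rnf128, known from T cell anergy, read 31.5 in Ebf2-/- cells and 93.9 in Ebf2+/- cells, 2.99-fold lower, and at least 2.09-fold lower by its other probe set. Rnf149 was 1.85-fold lower, with 587 in Ebf2-/- cells and 1089 in Ebf2+/- cells. Rnf150 was 1.74-fold higher and Rnf130 1.16-fold lower. All 4 hormone receptors related to the LGR proteins that had a probe set, Tshr, Fshr, Rxfp1 and Rxfp2, were below background on both arrays.

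Lgr5 is known to mark cells of the developing joint in mice, and genes of the joint interzone and synovium were therefore set beside it. By the brightest probe set, 5 of 8 genes were below background on both arrays, among them Gdf5, an early marker of the interzone, with 3.52 in Ebf2-/- cells and 0.87 in Ebf2+/- cells. Prg4, the gene of the joint lubricant lubricin, read 102 in Ebf2-/- cells and 23.7 in Ebf2+/- cells, 4.30-fold higher. Osr2, a transcription factor of joint formation in mice, read 40.2 in Ebf2-/- cells and lay below background in Ebf2+/- cells, at least 2.26-fold higher. Seen on the Ebf2-/- array alone, Osr2 could only come out higher there. Wnt9a was 1.48-fold higher, with 50.7 in Ebf2-/- cells and 34.2 in Ebf2+/- cells.

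**Figure D3:**
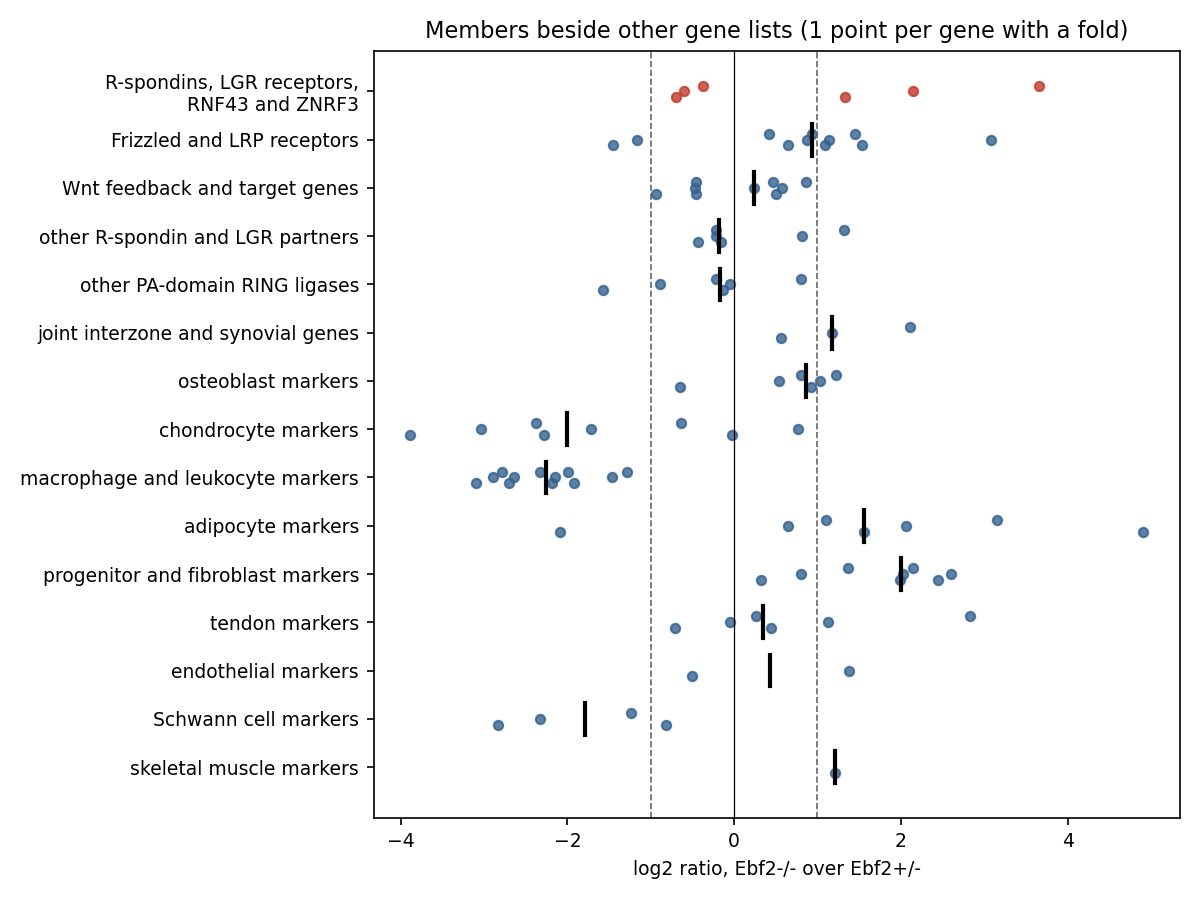
Log2 ratio of Ebf2-/- over Ebf2+/- for each gene with a fold (points), by gene list, with the members in red, the median of each other list as a bar and 2-fold as dashed lines; lower bounds are drawn at the bound. Progenitor and fibroblast markers lie to the right (median 2.01) and macrophage and leukocyte markers to the left (median -2.26).

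The arrays also differed in markers of cell types. All 12 macrophage and leukocyte markers with a fold were at least 2-fold lower in Ebf2-/- cells, and their signals, summed over the list, came to 1850 in Ebf2-/- cells and 7971 in Ebf2+/- cells. Itgam was below background on both arrays. Sums of this kind are weighted to the brightest genes of a list. Col2a1 alone, among chondrocyte markers, read 2592 in Ebf2-/- cells and 8542 in Ebf2+/- cells. Chondrocyte markers summed to 5507 in Ebf2-/- cells and 15089 in Ebf2+/- cells, with 5 of 8 at least 2-fold lower. Of the others, Col11a1 was 1.55-fold lower and Comp 1.70-fold higher. Sox9 was nearly equal at 1.02-fold lower, with a log2 ratio of 0.88 by another probe set. Matn1, Matn3 and Col10a1 were below background on both arrays. Schwann cell markers summed to 276 in Ebf2-/- cells and 938 in Ebf2+/- cells, with 3 of 4 at least 2-fold lower. On the other side, progenitor and fibroblast markers summed to 15940 in Ebf2-/- cells and 6058 in Ebf2+/- cells. Among them, 6 of 8 were at least 2-fold higher. Adipocyte markers summed to 3267 in Ebf2-/- cells and 1057 in Ebf2+/- cells, and 5 of 7 passed 2-fold upwards and 1 downwards. Tendon markers summed to 12364 in Ebf2-/- cells and 13415 in Ebf2+/- cells, and 2 of 6 passed 2-fold upwards and 0 downwards. Their median log2 ratio was 0.35. Fmod, the brightest of them, read 5970 in Ebf2-/- cells and 9720 in Ebf2+/- cells. Of the endothelial and skeletal muscle markers, 4 of 6 and 5 of 6 were below background on both arrays, among them Pecam1, Cdh5, Myod1 and Myog. The part of these cell types in the values of Rspo3, Lgr5 and the other members was not tested.

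Of the 9 osteoblast markers with a probe set, 6 were above background on both arrays. Sparc, Col1a2 and Col1a1 were bright, with 17570, 15008 and 12784 in Ebf2-/- cells and 12049, 8597 and 5478 in Ebf2+/- cells, although the second probe set of Col1a1 had a log2 ratio of -0.49. The osteoblast transcription factors Sp7 and Dlx5 read 53.3 and 83.0 in Ebf2-/- cells and 83.7 and 43.7 in Ebf2+/- cells, and alkaline phosphatase, Alpl, 51.8 in Ebf2-/- cells and 25.4 in Ebf2+/- cells. Ibsp, Phex and Dmp1, genes of mineralizing osteoblasts and osteocytes, were below background on both arrays. The Ebf2 transcript itself was at or near background, with no probe set above it on both arrays, and so could not separate the genotypes. Its 3 probe sets read 25.1, 20.6 and 14.4 in Ebf2-/- cells and 14.4, 24.9 and 13.7 in Ebf2+/- cells. Where these probe sets lie relative to the targeted part of the gene is not known here. The ratio of 3' to 5' signal, a sign of RNA integrity, was 2.79 in Ebf2-/- cells and 1.97 in Ebf2+/- cells for beta-actin and 1.60 and 1.30 for Gapdh, and its part in the members' values was not tested.

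The genes that lie next to the members in the RefSeq annotation were read out as well, taking on each side the nearest protein-coding gene with a probe set of its own. Of these 16 neighbours 12 had a fold, and 2 differed by 2-fold or more. Among all genes above background, 6.30% passed 2-fold upwards and 3.46% downwards, so 2 among 12 genes says little. Beside Rspo3, on chromosome 10, Rnf146 was 1.26-fold higher, with 572 in Ebf2-/- cells and 452 in Ebf2+/- cells, and Cenpw, a gene of the centromere, was 2.29-fold higher, with 186 in Ebf2-/- cells and 81.3 in Ebf2+/- cells. Beside Lgr5, also on chromosome 10, Zfc3h1 was nearly equal, with 294 in Ebf2-/- cells and 292 in Ebf2+/- cells, and A930009A15Rik was below background on both arrays. Beside Lgr4, Ccdc34 was 2.62-fold lower, with 34.8 in Ebf2-/- cells and 91.3 in Ebf2+/- cells. Kremen1, which encodes a receptor of Dickkopf Wnt antagonists and lies beside Znrf3, had 112 in Ebf2-/- cells and 108 in Ebf2+/- cells.

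**Figure D4:**
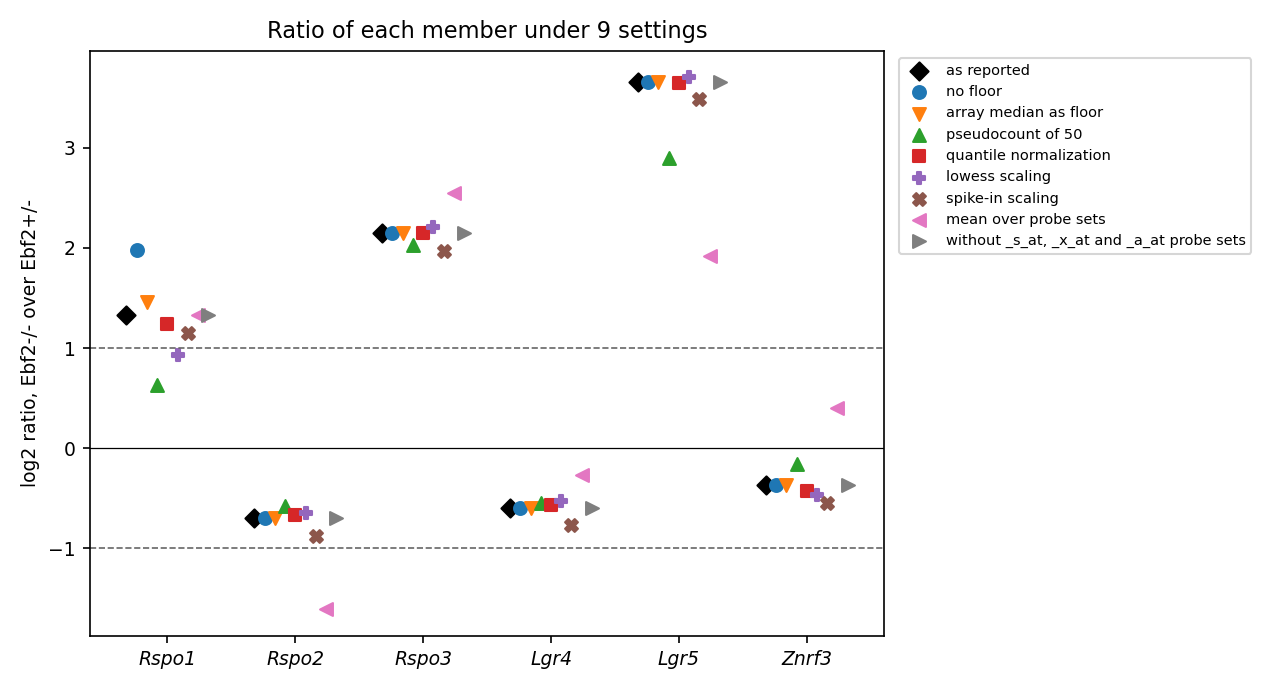
Log2 ratio of Ebf2-/- over Ebf2+/- for the 6 members with a fold, as reported (diamond) and under 8 other settings, with 2-fold as dashed lines. Lgr5 and Rspo3 stay above the upper line in all 9 settings, Rspo1 crosses it in 2, Rspo2 passes the lower line with the mean over probe sets, and Znrf3 changes sign with that mean.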

How the data were processed

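Total RNA was labelled with biotin and hybridised to Affymetrix Mouse Genome arrays, per the labels. The authors deposited 1 linear intensity per probe set, made with MAS5 per the submitters' processing notes (version not given in the sources used here). Trimmed by 2% at each end, the mean intensity was 100.001 on both arrays, so each had been brought to a common target and a global shift between genotypes would be hidden. Gene symbols came from the platform annotation (34958 probe sets with 1 symbol, 932 with several, 9211 not listed). Where a gene had several probe sets, the brightest by mean log2 signal stood for it. Ratios were described by size, and 2-fold was the mark. No test was made and the number of arrays limits the precision. Named genes were all members, Ebf2, the 4 largest ratios of each pathway list and the brightest or undetected markers. Other named genes were picked with their values known. These were Axin2, Nkd2, Lef1, Lrp5, Rspo4, Ndp, Tnfsf11, Gdf5, Sox9, Comp, Sp7, Dlx5, Alpl and the neighbours of members. The members and lists were chosen with earlier results of these data known. The gene step was tested on simulated data, with changes well past 2-fold set in brighter genes only. Recovery of dim genes, of bounds and of changes near 2-fold was not tested. Computation used Python 3.11.15, numpy 2.4.6, pandas 2.3.3 and statsmodels 0.14.6 (lowess, span 0.3).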

Additional observations from a re-analysis of the deposited data

How the results depend on the processing

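Each ratio was recomputed with no floor, with the array median as floor, with a pseudocount of 50, with quantile, lowess and spike-in scaling, averaged over probe sets, and without probe sets ending in _s_at, _x_at or _a_at. Over these settings the log2 ratio of Lgr5 ranged from 1.92 (a bound) to 3.70 and that of Rspo3 from 1.97 to 2.55, and both passed 2-fold in each. Rspo1 had 1.98 with no floor and 0.63 with the pseudocount, where 2 members were at least 2-fold higher, as after lowess scaling (0.93). Lgr5 had 2.90 with the pseudocount. Averaged over probe sets, Lgr5 had a log2 ratio of 1.92 and Rspo2 of -1.61, both as bounds, and Znrf3 of 0.40, and 1 member was at least 2-fold lower. Lgr4 ranged from -0.77 to -0.27. Spike-in scaling lowered the log2 ratios of the members by 0.18 (SD 0.15 over 18 probe sets) and moved the median over doubly detected genes to -0.17, and under it 4.48% of all measured genes passed 2-fold upwards and 5.30% downwards. With no floor, these shares were 8.46% and 5.86% (997 and 691 genes, against 742 and 408 as reported), and with the pseudocount 2.38% and 1.14% (280 and 134 genes). Of 111 medians of the other gene lists, 109 kept their sign; the 2 that did not are given in the report. No paired analysis was possible because each genotype had 1 array, and no replicate could be left out.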
